A study of Homo sapiens with 6 samples.

Results

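The genes of glycolysis and pyruvate metabolism were followed in LoVo cells after knockdown of SRSF11. The set held 36 genes of the 58735 in the count table, chosen by gene symbol to cover glucose transporters, glycolytic and lactate enzymes, and the entry of pyruvate into the mitochondrion. Of the 36 genes, 34 had enough counts to be tested, among 15801 tested genes in all. The set was drawn up with the rise of PKM in this same comparison already known, so the values of PKM and the number of changed genes are given as a description. No p-value is printed for any of the 36 genes. Where a gene is called, or set against a threshold of p, that too is a description.

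LoVo is an established line of human colorectal cancer cells, and SRSF11 encodes a serine/arginine‐rich splicing factor. The cells carried either a negative control siRNA (si‐NC, 3 libraries) or an siRNA against SRSF11 (si‐SRSF11, 3 libraries), with no other treatment named. The libraries were made from polyadenylated RNA with a kit that does not mark strand, and both ends of each fragment were read over 150 bp. Which SRSF11 siRNA was used for the sequenced cells and how long after transfection they were collected is not given in the sources used here, so that effects shared by all siRNAs against SRSF11 and effects of this siRNA cannot be told apart. The study speaks of 3 pairs of independent RNA samples. The labels do not say which libraries form a pair or whether the samples came from separate cultures. The tests measure the spread between these samples.

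Glycolysis turns glucose into pyruvate in the cytosol with a small gain of ATP, and pyruvate is then either reduced to lactate and exported or carried into the mitochondrion and oxidised. Most steps can be run by several isozymes from separate genes, which differ in their kinetics and in the tissues that use them. Cancer cells commonly take up much glucose and release much lactate even with oxygen present, and pyruvate kinase, the last enzyme before pyruvate, is known for its M1 and M2 forms, which are made by alternative splicing of PKM.

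The libraries held 14369525 to 16685719 counts each. SRSF11 itself had 1271, 1281 and 1363 counts in the si‐NC libraries and 789, 789 and 807 in the si‐SRSF11 libraries. All 3 knockdown libraries lay below all 3 controls, at 57.2% of the control level after scaling, a log2 fold change of -0.81 (standard error 0.054, P = 0.1 by an exact two-sided permutation test, the smallest that 3 libraries against 3 allow). The 11 colorectal epithelial markers all had counts, although KRT20 and CEACAM5 did not exceed 20 counts in any library, and their summed CPM (counts scaled to the size of the library) was 6040 to 6413 in si‐NC and 6112 to 6548 in si‐SRSF11. Of these markers, CDX1 and CDX2, intestinal transcription factors named after their values were seen, were called higher, with log2 fold changes of 0.31 and 0.40 and no overlap between the groups. Of the 6 fibroblast markers 3 were at 0 in each library. The summed CPM of the 6 overlapped between the groups and was at most 13.2, nearly all from COL1A1. COL1A1, named after its values were seen, had 179 to 206 counts per library. Endothelial markers summed to 1.48 to 2.57 CPM in si‐NC and 0.797 to 2.05 CPM in si‐SRSF11. Immune markers, with PTPRC at 0 in each library, summed to 2.90 to 3.66 CPM in si‐NC and 4.54 to 4.92 CPM in si‐SRSF11, nearly all from CD14 and LYZ. In RNA from whole cultures, fewer cells of a kind and less RNA per cell cannot be told apart.

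Throughout, CPM uses library sizes after the TMM scaling of edgeR, and the per-length level is CPM per kilobase of the gene's exons. Levels of different genes are compared per length, except where reads, counts or CPM are named. Fold changes are on the log2 scale, si‐SRSF11 against si‐NC, followed by their standard error. A gene is called higher or lower when its adjusted p in the edgeR quasi-likelihood test over all genes was under 0.05. Of all tested genes, 24.6% were called, 13.2% higher and 11.4% lower. Of the 34 glycolysis and pyruvate genes, 13 were called, 6 higher and 7 lower, and nothing is read from that count beside the background, since the set was drawn up with this comparison in view. With library size alone as the scaling, the calls were 6 higher and 9 lower for the set and 1585 higher and 2289 lower for all genes, against 2081 higher and 1805 lower in the TMM scaling. No gene of the set passed an absolute log2 fold change of 1, which 1.09% of all tested genes passed together with the adjusted p. Only PKM and ALDOA passed 0.5, while 14 of the 34 stayed under 0.1. The level of ALDOA is uncertain, for the reason given with that gene below. The median log2 fold change was -0.02 over the set and 0.00 over all tested genes. The libraries of the groups did not overlap in 17 of the 34 genes, the 13 called ones and 4 others, against 38.8% of all tested genes.

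**Figure D1:**
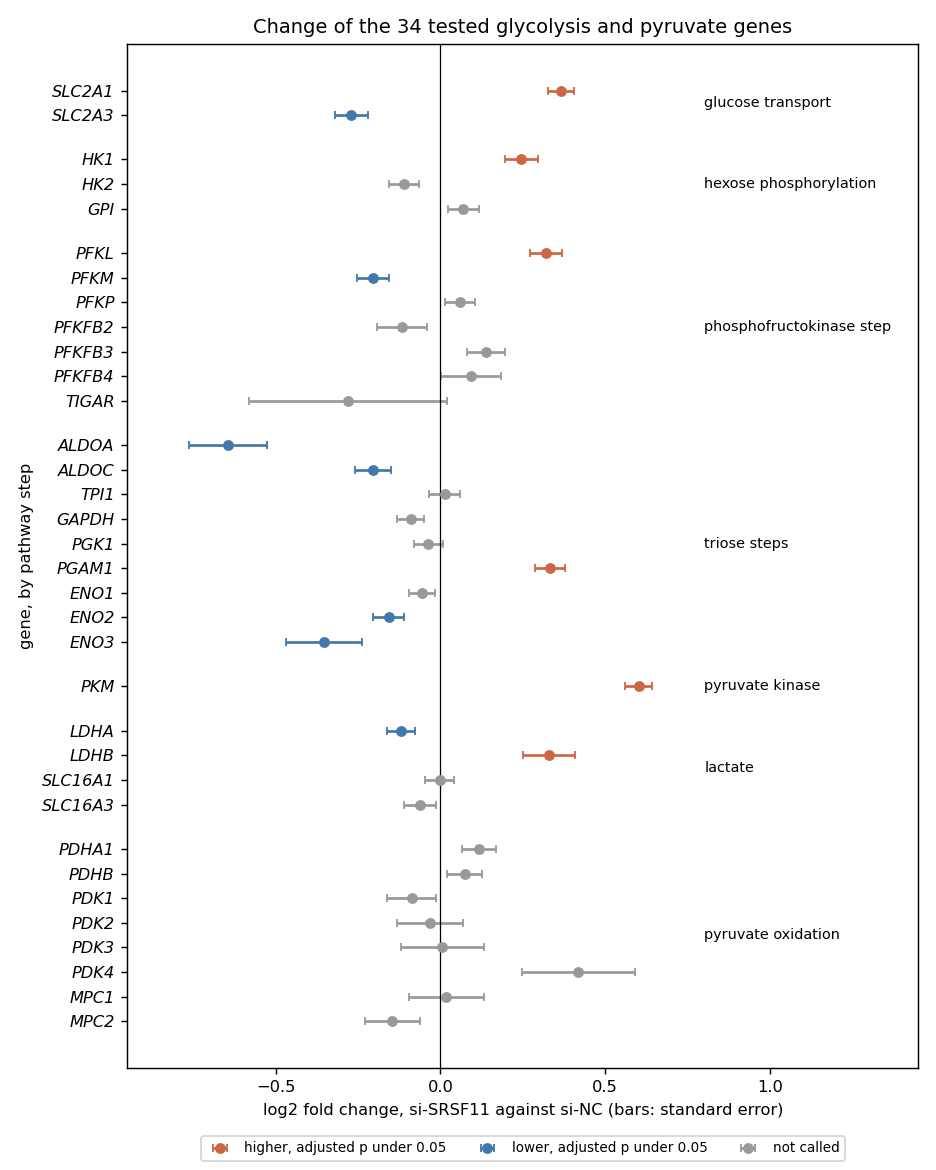
Log2 fold change of si‐SRSF11 against si‐NC for each of the 34 tested genes, ordered by pathway step, with bars for the standard error. PKM at 0.60 and ALDOA at -0.64 lie farthest from 0 among the called genes, and no gene of the pyruvate oxidation step was called. The level of ALDOA is uncertain, since most of its coding bases are shared with another gene.

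PKM encodes the pyruvate kinase of most tissues, which transfers phosphate from phosphoenolpyruvate to ADP. Its CPM was 1323, 1277 and 1346 in the si‐NC libraries and 1977, 1999 and 2009.9 in the si‐SRSF11 libraries. The groups lay far apart and the spread within each was small, so that the lowest knockdown library stood well above the highest control. The log2 fold change was 0.60 ± 0.040, or 152% of the control level, and the per-length level went from 153 ± 4.10 to 233 ± 1.94 (SD, n = 3). PKM moved from rank 55 to rank 33 of all genes by reads, and from rank 227 to rank 143 by per-length level. The 40 other tested genes with at least as many reads all had a smaller log2 fold change, whereas over all genes called higher PKM came at rank 239 of 2081 by fold. PKM was chosen for its rise, so nothing is read from these ranks. Its share of all counts was 0.134%, 0.130% and 0.135% in si‐NC and 0.197%, 0.197% and 0.196% in si‐SRSF11. PKLR, the form of liver and red cells, had 0, 3 and 0 counts in si‐NC and 1, 0 and 0 in si‐SRSF11, too few to test, so nearly all pyruvate kinase mRNA counted here was that of PKM in both groups.

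PKM (ENSG00000067225) is on the minus strand of chromosome 15 (GRCh38, 72199029 to 72231822), and no exon base of it is shared with another gene in GENCODE 29. Its M1 and M2 mRNAs differ by a pair of mutually exclusive exons of 167 bases, here at chr15:72203022-72203188 and chr15:72202454-72202620. They are shown because a count per gene sums both forms and says nothing of the choice between them. In GENCODE 29, 6 of the 14 coding transcripts carry the M1 exon and 3 the M2 exon, and 105 of the 167 bases (62.9%) are equal in both. Capitals mark the 62 bases that differ, and the sequences are read 5′ to 3′ on the transcribed strand.

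M1 exon: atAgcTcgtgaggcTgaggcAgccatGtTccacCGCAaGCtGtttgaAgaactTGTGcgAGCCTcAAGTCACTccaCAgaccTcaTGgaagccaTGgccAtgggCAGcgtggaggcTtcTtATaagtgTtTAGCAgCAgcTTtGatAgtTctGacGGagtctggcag

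M2 exon: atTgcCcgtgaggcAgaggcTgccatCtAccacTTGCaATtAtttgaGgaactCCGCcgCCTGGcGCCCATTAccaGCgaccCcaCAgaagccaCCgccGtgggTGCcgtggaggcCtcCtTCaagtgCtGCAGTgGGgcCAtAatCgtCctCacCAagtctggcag

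Each of these exons makes up 1.95% of the exon bases of PKM, and the values of PKM above are those of the gene as a whole. The splicing factors known to act on this exon pair were followed as a list of 5 genes. SRSF3 had 2581, 2658 and 2780 counts in si‐NC and 3403, 3687 and 3664 in si‐SRSF11. Its log2 fold change was 0.33 ± 0.046 (edgeR quasi-likelihood test with Benjamini-Hochberg adjustment, adjusted p = 1.36e-05). HNRNPA2B1 rose by less, with a log2 fold change of 0.18 ± 0.043 (edgeR, adjusted p = 0.00447). The other 3, named after their values were seen, were not called, with log2 fold changes of 0.00 for PTBP1, 0.03 for HNRNPA1 and 0.10 for RBM4. The 5 genes had a median log2 fold change of 0.10.

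**Figure D2:**
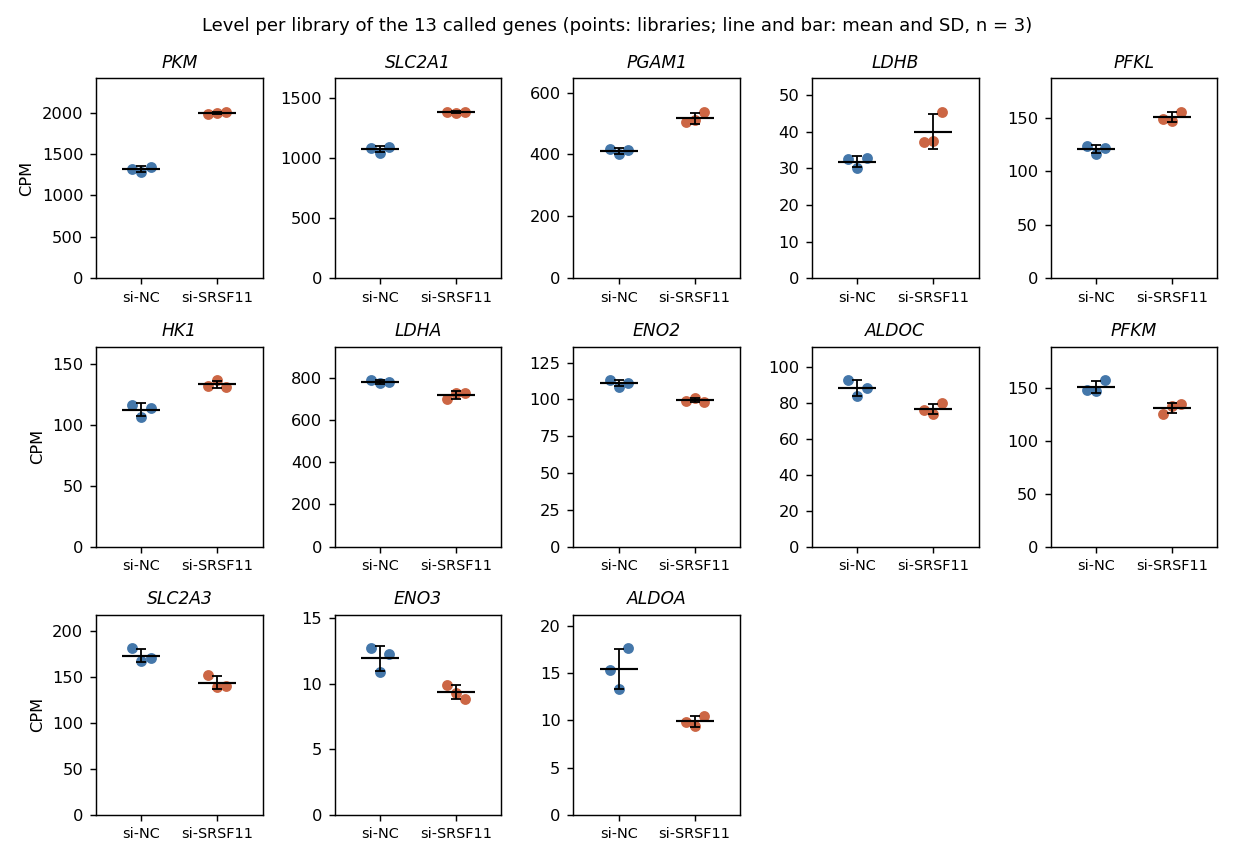
CPM of each of the 13 called genes in each library, with the mean and SD of 3 libraries per group; each vertical axis starts at 0. In all 13 panels the si‐NC and si‐SRSF11 points do not overlap, and for PKM they are separated by the step from 1346 at the top of si‐NC to 1977 at the bottom of si‐SRSF11.

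Glucose enters through transporters of the SLC2A family. SLC2A1, the transporter found in most cell types and in many tumours, had a CPM of 1087, 1046 and 1094 in si‐NC and 1388.5, 1379.5 and 1389 in si‐SRSF11. All knockdown libraries were higher, with a log2 fold change of 0.37 ± 0.041. SLC2A3, a transporter of high affinity best known from neurons, moved the other way, from 182, 168 and 171 CPM to 152, 139.5 and 140.1 CPM. Again no library overlapped, and the log2 fold change was -0.27 ± 0.051. In per-length levels SLC2A1 was the more abundant in both groups, with 228 ± 5.48 against 28.2 ± 1.15 for SLC2A3 in si‐NC and 293 ± 1.11 against 23.4 ± 1.18 in si‐SRSF11 (SD, n = 3). The share of SLC2A1 in the sum of both per-length levels was 88.6%, 89.0% and 89.3% in si‐NC and 92.2%, 92.8% and 92.8% in si‐SRSF11.

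Hexokinases phosphorylate glucose and so keep it in the cell. HK1, the form of most tissues, had a CPM of 116, 106 and 114 in si‐NC and 131, 137 and 131 in si‐SRSF11, a log2 fold change of 0.25 ± 0.049 with no overlap. HK2, the form often raised in tumours, had 196, 189 and 189.8 CPM against 175, 184 and 174 CPM. Its libraries did not overlap either, yet with a log2 fold change of -0.11 ± 0.047 it was not called; with library size alone as the scaling (-0.15) or with protein-coding genes only (-0.12) it was called lower. HK2 had the higher per-length level of the pair, and the share of HK1 in their sum was 36.4%, 35.1% and 36.6% in si‐NC and 41.9%, 41.7% and 42.1% in si‐SRSF11. GPI, which turns glucose phosphate into fructose phosphate, was not called, and its values overlapped between the groups (log2 fold change 0.07). On the same strand, 10.3% of its coding bases are also annotated to AC092073.1, which had 0 counts in each library.

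Phosphofructokinase commits the sugar to glycolysis and works as a tetramer of subunits from 3 genes. PFKL, the liver type subunit, had a CPM of 124, 116 and 121 in si‐NC and 149, 147 and 156 in si‐SRSF11, a log2 fold change of 0.32 ± 0.048. PFKM, the muscle type subunit, had 148, 147 and 158 CPM in si‐NC and 126, 133 and 135 CPM in si‐SRSF11, a log2 fold change of -0.20 ± 0.049. Neither subunit overlapped between the groups, and they moved in opposite directions. PFKP, the platelet type subunit, was the most abundant by per-length level and was not called, with 52.8, 52.6 and 54.0 in si‐NC and 54.8, 56.2 and 55.0 in si‐SRSF11 and a log2 fold change of 0.06, although its knockdown libraries were all above the controls. By per-length level, PFKL made up 15.5% of the subunits in si‐NC and 18.7% in si‐SRSF11, PFKM 23.7% and 19.9%, and PFKP 60.9% and 61.4%. The shares of PFKL and PFKM did not overlap between the groups, and those of PFKP did. Of the exon bases of PFKM, 8.58% lie opposite SENP1, whose reads cannot be told apart there and whose log2 fold change was -0.23, not called, with no overlap between the groups.

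The enzymes that make and remove the regulatory sugar bisphosphate that activates phosphofructokinase were not called. PFKFB3, whose product mainly makes that signal and which is known for driving glycolysis in tumours, had a CPM of 63.9, 63.5 and 58.7 in si‐NC and 71.5, 67.9 and 65.4 in si‐SRSF11. Every knockdown library was higher, but the log2 fold change of 0.14 ± 0.058 was not called; without si‐SRSF11 replicate 3 it was 0.16 and called higher. PFKFB2 and PFKFB4 overlapped between the groups, with log2 fold changes of -0.12 and 0.09. TIGAR, which breaks the signal down, had 19 to 30 counts per library and a log2 fold change of -0.28 ± 0.30, and its level is uncertain, since 96.0% of its coding bases are also annotated on the same strand to AC008012.1, which had 0 counts in each library. FBP1, the gluconeogenic enzyme that reverses the phosphofructokinase step, had at most 1 count in any library and was not tested.

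Aldolase splits the hexose into a pair of trioses. ALDOC, best known from brain, had a CPM of 92.7, 83.5 and 88.1 in si‐NC and 75.7, 74.0 and 79.7 in si‐SRSF11, a log2 fold change of -0.20 ± 0.055. Its groups did not overlap, but without si‐NC replicate 1 the log2 fold change was -0.17 and no longer called. ALDOA, the form of muscle and most other tissues, had 223, 203 and 275 counts in si‐NC and 153, 153 and 171 in si‐SRSF11, which gave the lowest log2 fold change of the set, -0.64 ± 0.117. The level of ALDOA is uncertain, because 93.8% of its coding bases are shared on the same strand with the annotated gene AC093512.2 and the rule by which reads of overlapping genes were counted is not given in the sources used here. AC093512.2 had 50 to 87 counts per library and a log2 fold change of -0.31 that was not called.

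The middle of the pathway held the highest per-length levels of the set, and most of its genes with high levels were not called. GAPDH, which makes the first NADH of glycolysis and often serves as a reference gene, had a CPM of 3052.5, 2901 and 3103 in si‐NC and 2952, 2706 and 2853 in si‐SRSF11. One knockdown library fell within the range of the controls, and the log2 fold change of -0.09 ± 0.041 was not called, whereas it was called lower with library size alone (-0.12) and without si‐SRSF11 replicate 1 (-0.12). TPI1, which interconverts the trioses, and PGK1, which makes the first ATP, overlapped between the groups with log2 fold changes of 0.01 and -0.04. PGAM1, the mutase that moves the phosphate of phosphoglycerate, differed from these neighbours in its call, with 417, 401 and 415 CPM in si‐NC and 504, 510.4 and 538 CPM in si‐SRSF11. Its knockdown libraries were all higher, with a log2 fold change of 0.33 ± 0.046 and a per-length level that went from 160.1 ± 3.28 to 201 ± 7.07 (SD, n = 3).

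Enolase makes phosphoenolpyruvate, the substrate of pyruvate kinase. ENO1, the form of most tissues, had 94.6% of the summed per-length level of the enolases in si‐NC and 95.0% in si‐SRSF11, and was not called (log2 fold change -0.06). ENO2, the neuronal form, had a CPM of 113, 109 and 111 in si‐NC and 99.2, 101 and 98.5 in si‐SRSF11, and ENO3, the muscle form, 12.7, 10.9 and 12.3 CPM against 9.91, 9.29 and 8.83 CPM. Both minor forms were lower in all knockdown libraries, with log2 fold changes of -0.16 ± 0.048 and -0.35 ± 0.116. These calls were not stable, since ENO2 was no longer called without si‐NC replicate 1 (-0.14) or without si‐NC replicate 3 (-0.16), and ENO3 without si‐NC replicate 1 (-0.31), si‐NC replicate 3 (-0.33), si‐SRSF11 replicate 2 (-0.35) or si‐SRSF11 replicate 3 (-0.32), nor with DESeq2 (-0.36). Of the exon bases of ENO3, 2.59% lie opposite PFN1, which had 7044 to 7483 counts in si‐NC and a log2 fold change of 0.30. Of the 9 triose genes, from aldolase to enolase, 1 was called higher and 4 lower, where 13.2% and 11.4% of all tested genes were, and nothing is read from that count; over the whole set the genes called lower were 3 without si‐NC replicate 1 and 4 without si‐NC replicate 3, against 7.

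Lactate dehydrogenase reduces pyruvate and regenerates NAD for glycolysis. LDHA, whose enzyme favours lactate formation, had a CPM of 789.8, 774 and 779 in si‐NC and 699, 728 and 729 in si‐SRSF11. The groups did not overlap, but the log2 fold change was small, -0.12 ± 0.042, and the call was lost in 5 of the 6 fits that left out a library. In those fits the log2 fold change was -0.11 without si‐NC replicate 1, -0.13 without si‐NC replicate 2, -0.12 without si‐NC replicate 3, -0.11 without si‐SRSF11 replicate 1 and -0.13 without si‐SRSF11 replicate 2. LDHB, whose enzyme favours the return from lactate to pyruvate, had 32.5, 30.1 and 32.8 CPM in si‐NC and 37.1, 37.3 and 45.4 CPM in si‐SRSF11, a log2 fold change of 0.33 ± 0.080. It was higher in every knockdown library, and si‐SRSF11 replicate 3 stood above the other two; its level is uncertain, since 93.5% of its coding bases are also annotated to AC010197.2, which had 0 counts in each library. With that limit, the share of LDHA in the summed per-length level of both was 92.2% ± 0.289 in si‐NC and 89.6% ± 0.981 in si‐SRSF11 (SD, n = 3). The lactate exporters were not called, with log2 fold changes of 0.00 ± 0.044 for SLC16A1 and -0.06 ± 0.047 for SLC16A3, and overlapping values for both.

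**Figure D3:**
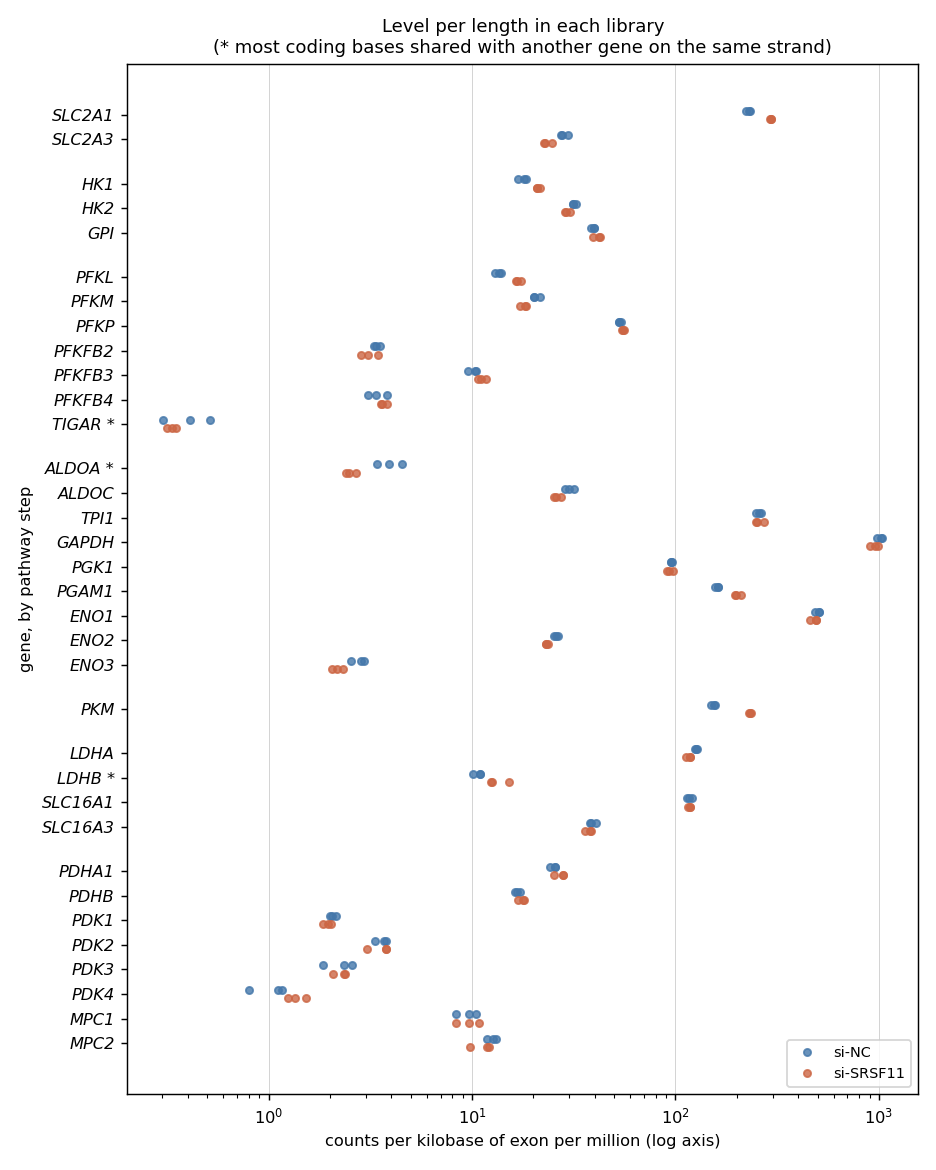
Per-length level (CPM per kilobase of exon, log axis) of the 34 tested genes in each of the 6 libraries, ordered by pathway step; an asterisk marks genes with most coding bases shared with another gene on the same strand. Mean levels in si‐NC ran from 0.409 for TIGAR to 1013 for GAPDH, with ENO1, TPI1, SLC2A1, PGAM1 and PKM next below GAPDH.

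Pyruvate enters the mitochondrion through the carrier of MPC1 and MPC2 and is oxidised by the pyruvate dehydrogenase complex, whose first enzyme is made of the products of PDHA1 and PDHB and is switched off by the kinases PDK1 to PDK4. None of these 8 genes was called by edgeR or by DESeq2, and at an unadjusted p under 0.05 there were 2 in edgeR, PDHA1 and PDK4, and 1 in DESeq2. PDHA1 had a CPM of 114, 115 and 109 in si‐NC and 114, 126 and 127 in si‐SRSF11, overlapping through the first knockdown library. Its log2 fold change was 0.12 ± 0.051, and without si‐SRSF11 replicate 1 it was 0.16 and called higher. PDHB had 81.2, 78.6 and 76.5 CPM against 79.6, 83.7 and 85.1 CPM, again with overlap, and a log2 fold change of 0.07 ± 0.053. The carrier genes overlapped as well, with 0.02 ± 0.115 for MPC1 and -0.15 ± 0.083 for MPC2 on the log2 scale. Of the exon bases of MPC2, 22.5% lie opposite DCAF6, whose log2 fold change was 0.38. Of those of PDHA1, 21.3% lie opposite MAP3K15, which had 33 to 68 counts per library.

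PDK4, the kinase induced by fasting and fatty acids in many tissues, had 73, 55 and 82 counts in si‐NC and 95, 112 and 92 in si‐SRSF11. Its CPM was higher in all knockdown libraries, at 6.07, 6.89 and 5.64 against 5.03, 3.62 and 5.26. At these counts the standard error was wide, and the log2 fold change of 0.42 ± 0.171 was not called. PDK1, PDK2 and PDK3 overlapped between the groups, with log2 fold changes of -0.09, -0.03 and 0.01. By per-length level the kinase genes were of the same order, with PDK2 highest at 3.60 ± 0.246 in si‐NC and PDK4 lowest at 1.03 ± 0.197 (SD, n = 3). That order depends on the annotated exon lengths, since by mean CPM in si‐NC PDK1 stood above PDK2, at 30.7 against 19.7. SAMD14, with 0 to 5 counts per library, lies opposite 38.6% of the exon bases of PDK2.

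As a whole, the 36 genes took 1.38%, 1.34% and 1.38% of all counts in si‐NC and 1.41%, 1.40% and 1.42% in si‐SRSF11. The libraries did not overlap, and the mean was 0.0407 percentage points higher in si‐SRSF11. GAPDH held 0.305% of all counts in si‐NC and 0.280% in si‐SRSF11, and without it the difference was 0.0657 points. Without PKM, whose rise was known when the set was drawn up, the difference was -0.0233 points and the libraries overlapped, with 1.25%, 1.21% and 1.24% in si‐NC and at most 1.22% in si‐SRSF11. The genes of the mitochondrial genome took 7.12% of all counts in si‐NC and 8.37% in si‐SRSF11, and with them left out of the total the difference was 0.0644 points. Pseudogenes named by the symbol of an enzyme followed by P and a number took few counts. No single row of this kind reached 1% of its parent gene. Those of a gene together had at most 2.07% of the counts of the parent for TPI1, 0.529% for GAPDH and 0.0323% for PKM. Pseudogenes under other names were not searched for.

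The annotated start sites were searched for 3 motifs on both strands, in windows from 250 bases before to 50 after each start (RefSeq, GRCh38.p14). The motifs were ACGTG, the core of the hypoxia response element bound by HIF factors, CACGTG, the E-box bound by MYC and related factors, which holds ACGTG within it, and GGGCGG, the GC box bound by SP1 and related factors. The table held 33 of the 36 genes with 65 windows, without SLC2A3, SLC16A1 and PFKFB2. ACGTG was found in 35.4% of the windows of these genes and in 21.4% of all windows, CACGTG in 13.8% and 7.26%, and GGGCGG in 69.2% and 44.9%. By gene, ACGTG was found in 0 of the 6 called higher, in 5 of the 6 called lower that were in the table, and in 13 of the 19 that were not called, against 24.9% of all 27305 genes in the table. Those 5 were PFKM, with the motif in 2 of its 7 windows, ALDOA, ALDOC, ENO2 and LDHA. The level of ALDOA is uncertain, and ALDOC, ENO2 and LDHA each lost the call in at least 1 fit that left out a library. The level of LDHB, among the 6 called higher, is uncertain too. CACGTG was found in 0 of the 6 called higher, in 3 of the 6 called lower and in 5 of the 19 not called, against 8.77% of all genes. Those 3 were ALDOA, ALDOC and LDHA, so part of their ACGTG matches lie within an E-box. The GC box was found in all 6 called higher, in all 6 called lower and in 18 of the 19 not called, against 48.3% of all genes. The windows and genes set beside them were not limited to genes expressed in these cells, so they are an unlike background for this set. Genes had between 1 and 7 windows, and a gene with more windows has more chances of a match. These counts are therefore a description of the letters only.

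The 250 bases before the start are shown for 3 genes with a single window, PKM and SLC2A1 as the called rises with the most reads and ALDOC as a called fall with both kinds of match. Capitals mark the matches, read 5′ to 3′ toward the start site on the strand of the gene, and CCGCCC and CACGT are the same motifs on the other strand. The windows lie at chr15:72231191-72231440, chr1:42958869-42959118 and chr17:28576896-28577145, all on the minus strand.

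PKM: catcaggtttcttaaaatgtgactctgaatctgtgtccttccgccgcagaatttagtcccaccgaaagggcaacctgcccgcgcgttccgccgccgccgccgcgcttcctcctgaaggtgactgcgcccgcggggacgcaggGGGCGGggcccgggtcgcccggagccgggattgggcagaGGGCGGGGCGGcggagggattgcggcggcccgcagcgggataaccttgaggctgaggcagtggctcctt

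SLC2A1: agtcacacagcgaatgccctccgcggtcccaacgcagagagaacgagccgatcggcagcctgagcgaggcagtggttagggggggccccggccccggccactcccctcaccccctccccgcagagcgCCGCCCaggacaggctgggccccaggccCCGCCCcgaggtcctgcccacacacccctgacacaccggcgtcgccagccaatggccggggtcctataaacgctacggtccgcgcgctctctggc

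ALDOC: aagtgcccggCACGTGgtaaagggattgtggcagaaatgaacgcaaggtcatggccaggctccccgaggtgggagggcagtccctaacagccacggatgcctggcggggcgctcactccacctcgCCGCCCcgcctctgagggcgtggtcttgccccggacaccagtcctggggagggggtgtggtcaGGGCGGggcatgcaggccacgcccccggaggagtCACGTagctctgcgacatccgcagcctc

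PKM has 3 GC boxes, of which the pair nearest the start overlaps, and SLC2A1 has 2. ALDOC has 2 GC boxes, an E-box and a further ACGTG core on the other strand nearer to the start. A list of 13 transcription regulators of glycolytic genes, which holds the HIF and MYC factors but also regulators that bind none of these motifs and no GC box factor, was followed beside them, of which 12 were tested, 2 were called higher and 3 lower, with a median log2 fold change of 0.06. Beside the 13.2% of all tested genes called higher and 11.4% called lower, nothing is read from that count. MYC, which activates many glycolytic genes, had 3859, 3793 and 4363 counts in si‐NC and 4799, 4815 and 5193 in si‐SRSF11, a log2 fold change of 0.21 ± 0.050 (edgeR quasi-likelihood test, adjusted p = 0.00351). ARNT, the partner of the HIF alpha subunits, fell, with a log2 fold change of -0.26 ± 0.058 (edgeR, adjusted p = 0.00188), and PPARGC1B, a coactivator of mitochondrial genes, rose by 0.47 ± 0.105 (edgeR, adjusted p = 0.0019). HIF1A, named here after its values were seen, was not called, with 487 to 510 counts in si‐NC, 518 to 563 in si‐SRSF11 and a log2 fold change of 0.02. The remaining called genes of this list, EPAS1 at -0.20 and FOXK2 at -0.14, were also named after their values were seen, and the list had 3 called genes with DESeq2 and without si‐NC replicate 1, si‐NC replicate 2, si‐NC replicate 3 or si‐SRSF11 replicate 3.

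The neighbouring pathways were described by their calls and medians beside those of all tested genes, of which 13.2% were called higher and 11.4% lower. Nothing is read from the counts of these short lists. Of the 26 further isozymes, transporters and partners of the same steps only 11 were expressed enough to be tested, with 2 called higher and 2 lower and a median log2 fold change of 0.01. SLC2A6, a further member of the glucose transporter family, had a log2 fold change of 0.34 and SLC2A8, a transporter of intracellular membranes, one of -0.30. LDHD, which oxidises the D form of lactate, had -0.21, and BSG, the chaperone of the lactate exporters, which was named after its values were seen, had 0.13. Without si‐NC replicate 2 the list had 1 called gene, and without si‐NC replicate 1, si‐NC replicate 3 or si‐SRSF11 replicate 2 it had 2.

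The list named for the rest of the pyruvate dehydrogenase complex also held genes of its phosphatases and of enzymes that make or attach its lipoyl groups. Of its 9 genes, 2 were called higher and 1 lower, with a median log2 fold change of 0.00. PDP1, the phosphatase that switches the enzyme back on, had a log2 fold change of -0.19, and DLAT, its acetyltransferase core, one of 0.18. DLD, the dehydrogenase that reoxidises its lipoyl groups, was called higher at 0.21 but overlapped between the groups and was named after its values were seen. Without si‐NC replicate 2 this list had 1 called gene. The citric acid cycle, which burns the acetyl groups made there, had 6 genes called higher and 1 lower of 16, with a median of 0.10 against 0.00 for all genes. Of all tested genes, 13.2% were called higher and 11.4% lower, and nothing is read from the counts of either list. OGDH, part of the oxoglutarate dehydrogenase complex, had 1491, 1523 and 1635 counts in si‐NC and 2073, 2190 and 2145 in si‐SRSF11, a log2 fold change of 0.37 ± 0.047 (edgeR quasi-likelihood test, adjusted p = 3.95e-06). SUCLA2, a subunit of succinyl CoA ligase, followed with 0.36 ± 0.054 (edgeR, adjusted p = 3.58e-05) and SDHA, the flavoprotein of succinate dehydrogenase, with 0.22 ± 0.051 (edgeR, adjusted p = 0.00301). All 3 were higher in every knockdown library. DLST, from the same complex as OGDH and named after its values were seen, was the gene called lower, at -0.16. Without si‐NC replicate 1 the cycle had 4 called genes.

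The pentose phosphate pathway, which branches off at glucose phosphate and makes NADPH, had 1 gene called higher and 1 lower of 8, beside 13.2% and 11.4% of all tested genes. PGD, its decarboxylating dehydrogenase, had a log2 fold change of 0.18 and H6PD, the form of its first enzyme in the endoplasmic reticulum, one of -0.16. Without si‐NC replicate 2 the list had 0 called genes in edgeR, with 4 at an unadjusted p under 0.05, and without si‐NC replicate 3 it had 1.

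**Figure D4:**
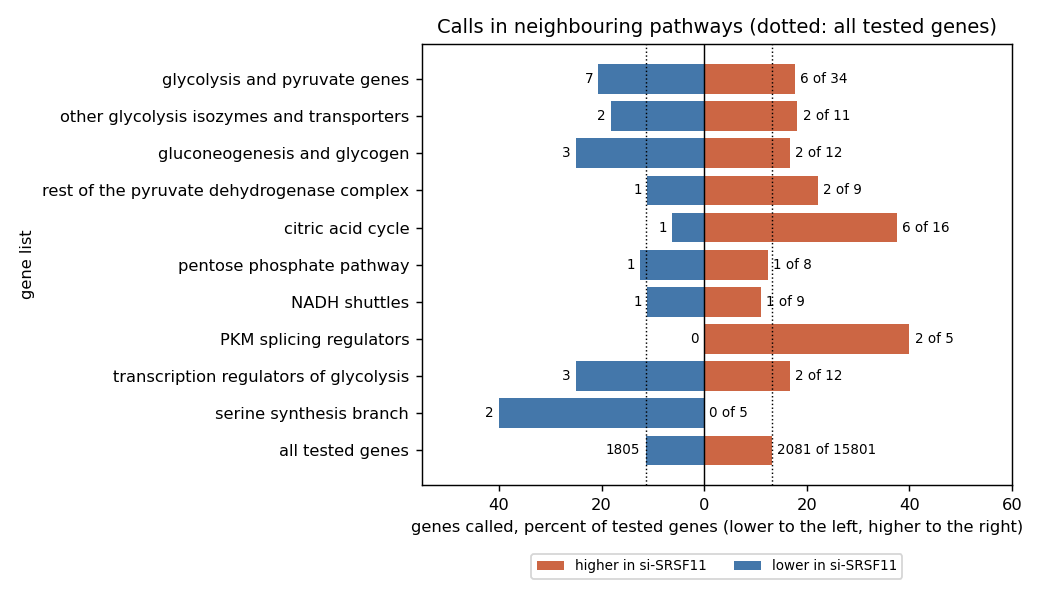
Percent of tested genes called lower (left) and higher (right) in si‐SRSF11 for the glycolysis and pyruvate genes, 9 neighbouring lists and all tested genes, with the numbers of genes at the bar ends and dotted lines at 11.4% lower and 13.2% higher. The glycolysis and pyruvate genes had 7 called lower and 6 higher of 34, and the citric acid cycle 1 lower and 6 higher of 16.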

How the data were processed

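RNA from LoVo cells was sequenced in 6 libraries, and the authors deposited raw counts per gene in a single table, without normalization. The submitters' processing notes name hg38; the aligner, the counting program and its rule for overlapping genes are not given in the sources used here. Gene coordinates and lengths in the table equalled those of GENCODE 29 for all 37 genes compared. Of the 36 genes, 10 shared over 10% of their exon bases with other annotated genes, and not each of these is marked above. The 36 genes and the lists were chosen with earlier results of these data known. A gene was kept if 3 or more libraries held 10 or more counts. The test was the quasi-likelihood test of edgeR (version 4.0.16, R version 4.3.3) on condition, with TMM scaling, and the scripts were tested on simulated data. Benjamini-Hochberg adjustment covered the 15801 tested genes, and standard errors were taken from the F statistic. Named were SRSF11, all 36 genes and, of each list, at most 3 genes with the smallest adjusted p under 0.05 and no overlap between the groups; other names are marked. Replicates differed by more than counting noise (chi-square per degree of freedom 2.08 to 5.42 within a group). Alternatives were DESeq2 (version 1.42.0), other scalings and filters, a fit blocked on replicate number, and fits leaving out 1 library each.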

Additional observations from a re-analysis of the deposited data

How the results depend on the processing

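Of the 13 called genes of the set, 9 were called in all 6 fits that left out a library and in all 9 other alternatives, and none changed its sign; of the 21 not called, 17 were never called. Leaving out each library in turn gave 9 to 14 called genes of the set, 6 to 7 higher and 3 to 7 lower, with the 3 without si‐NC replicate 1. The lists then had 1 to 4 called genes (further isozymes), 1 to 3 (rest of the dehydrogenase complex), 4 to 8 (citric acid cycle), 0 to 3 (pentose phosphate pathway), 3 to 5 (regulators) and 22 to 33 in all 9 lists, against 32. With DESeq2 the regulators had 3 called genes. At an absolute log2 fold change over 0.5 in place of 1, 2 genes of the set passed. The difference in the share of all counts was 0.0657 percentage points without GAPDH, -0.0233 without PKM and, in an alternative chosen after seeing the data, 0.0644 without the genes of the mitochondrial genome in the total. Signs turned only for genes near 0, and the cause was not tested. PDK3 was at -0.00065 with DESeq2, -0.00034 with its size factors in edgeR, -0.029 with library size alone, -0.0029 with the upper quartile, -0.0012 with no filter and -0.0061 with protein-coding genes only; TPI1 and MPC1 were at -0.021 and -0.017 with library size alone. Without a library the log2 fold change ran from -0.022 to 0.021 for SLC16A1, -0.031 to 0.032 for TPI1, -0.083 to 0.107 for MPC1, -0.087 to 0.059 for PDK2 and -0.121 to 0.108 for PDK3. The study names pairs of samples, but the labels do not say that same-numbered libraries form them, so the main fit used no pairing. The deviations of same-numbered libraries had correlations of 0.000213, 0.0528 and 0.0656. These cannot decide the question, since paired samples can also give low correlations. With the replicate block, 6 genes of the set were called higher and 7 lower, and no call of the set changed. In genes of few counts, such as PDK4, depth limits what could be detected.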

Other observations

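Pathways that leave or feed glycolysis at other points were described in the same way, beside the 24.6% of all tested genes that were called, and nothing is read from the counts of these short lists. The list of gluconeogenesis and glycogen had 2 genes called higher and 3 lower among its 12 tested genes, and their median log2 fold change was 0.05. PYGB, the brain form of glycogen phosphorylase, had 7777, 7880 and 8417 counts in si‐NC and 6430, 6365 and 6791 in si‐SRSF11, a log2 fold change of -0.39 ± 0.045 (edgeR quasi-likelihood test, adjusted p = 1.58e-06). GYS1, the glycogen synthase of muscle and other tissues, moved in the other direction, with 1606, 1555 and 1687 counts against 2307, 2354 and 2247 and a log2 fold change of 0.42 ± 0.049 (edgeR, adjusted p = 1.66e-06). PCK2, the mitochondrial enzyme that makes phosphoenolpyruvate from oxaloacetate, fell by 0.24 on the log2 scale (edgeR, adjusted p = 0.000329). All 3 genes were free of overlap between the groups. PC at -0.18 and G6PC3 at 0.18, named after their values were seen, were the other called genes.

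Serine synthesis, which draws on phosphoglycerate ahead of PGAM1, had 2 genes called lower and 0 higher of 5. PHGDH, its first enzyme, had 7829, 7850 and 8388 counts in si‐NC and 6702, 7247 and 7347 in si‐SRSF11, a log2 fold change of -0.27 ± 0.045 (edgeR quasi-likelihood test, adjusted p = 0.000138). PSPH, its last enzyme, had a log2 fold change of -0.21 (edgeR, adjusted p = 0.00487). Both were lower in all knockdown libraries. The shuttles that carry the electrons of cytosolic NADH into the mitochondrion had 1 gene called higher and 1 lower of 9. GOT1, the cytosolic aspartate transaminase, had 2688, 2718 and 2766 counts in si‐NC and 1872, 1979 and 2070 in si‐SRSF11, a log2 fold change of -0.56 ± 0.047 (edgeR, adjusted p = 1.96e-08). SLC25A13, a mitochondrial aspartate and glutamate carrier, had 604, 604 and 715 counts against 930, 879 and 907, a log2 fold change of 0.41 ± 0.066 (edgeR, adjusted p = 8.83e-05). GOT1 lay lower and SLC25A13 higher in every knockdown library.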
